A study of Danio rerio with 14 samples.

Results

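The genes of the phase II conjugation enzymes were examined in whole zebrafish larvae exposed to the metabolite M510F01, to its parent compound boscalid or to the solvent dimethyl sulfoxide (DMSO). Genes were taken by symbol, as UDP-glucuronosyltransferases (ugt1 to ugt5), sulfotransferases (sult) and glutathione transferases (gst). The symbols of 68 of 36351 genes matched, namely those of 32 glucuronosyltransferases, 18 sulfotransferases and 18 glutathione transferases. Analysis was limited to genes whose normalized counts averaged 10 or more across a table's 8 libraries, which were 59 genes in the boscalid table (27, 15 and 17 of the families in that order) and 59 in the M510F01 table (26, 16 and 17). A normalized count is the number of reads of a gene divided by a size factor of its library.

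Animals of the AB wild-type strain were kept in M510F01 at 0.03 µg/L, in boscalid at 0.03 µg/L or in 0.01% DMSO beginning 3 hours post fertilization (hpf), with daily renewal, and RNA of whole larvae was sequenced at 96 hpf. Boscalid is a fungicide that inhibits succinate dehydrogenase. The labels give no DMSO level for the exposed groups. The tables held 4 libraries of each group, with 12893093 to 17060350 reads assigned to genes per library, and 1 more M510F01 sample and 1 more boscalid sample in the labels were not analysed here. The labels do not say whether replicates came from separate clutches, tanks or pools, so p-values measure only the spread between these samples. The larvae were not dissected, so fewer cells of a type and less RNA per cell cannot be told apart.

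Phase II enzymes join a polar group to a foreign compound, hormone or bile pigment, often after an oxidation by a cytochrome P450, and so ready it for export in bile or urine. Glucuronosyltransferases use UDP-glucuronic acid and sit in the endoplasmic reticulum, sulfotransferases use the activated sulfate PAPS in the cytosol, and glutathione transferases add glutathione to electrophiles. In fish, as in mammals, liver, intestine and kidney hold much of this activity. Gene classes differ in their known substrates: UGT1 enzymes of mammals act on phenols and bilirubin, SULT1 enzymes on phenols, SULT2 enzymes on hydroxysteroids, and the UGT5 family is found in fish but not in mammals.

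Members near the limit of 10 were few. Inside it, ugt5c2 averaged 8.70 normalized counts in the M510F01 table and 10.3 in the boscalid table, so it was tested for boscalid against DMSO alone. The sulfotransferase sult1st7 averaged 13.4 in the M510F01 table and 9.32 in the boscalid table and was tested in the comparisons with M510F01 larvae. Both genes averaged under 10 in DMSO larvae (9.66 for ugt5c2 and 7.34 for sult1st7) and passed through the exposed group. For them the filter thus favoured a positive fold change against DMSO. Just outside, ugt5g2 averaged 9.21 and 9.12 in the tables of M510F01 and boscalid. In all, 58 genes passed in both tables, 60 in either and 8 in neither (gstk2, sult3st1, sult3st4, ugt1b3, ugt1b6p, ugt5b5, ugt5c1 and ugt5g2). Of these, ugt5c1 had 2 reads over all 12 libraries.

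The members took between 0.0966% and 0.148% of a library's assigned reads. The glutathione transferases summed to 9267 ± 1837 normalized counts in M510F01 larvae, 10009 ± 1705 in boscalid larvae and 8914 ± 1934 in DMSO larvae (SD, n = 4 each). Sulfotransferases summed to 4848 ± 755 in M510F01 larvae, 4620 ± 825 in boscalid larvae and 4512 ± 701 in DMSO larvae. Glucuronosyltransferases summed to 3534 ± 486 in M510F01 larvae, 3467 ± 239 in boscalid larvae and 3356 ± 456 in DMSO larvae. For each family the 3 group means lay closer together than the SD between replicates. Normalized counts are not corrected for gene length, so levels are compared between groups for a gene or a sum and not between genes.

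In each family a few genes held the highest counts. The UGT1-family gene ugt1a7 averaged 1125 ± 209 normalized counts in M510F01 larvae, 1100 ± 122 in boscalid larvae and 1075 ± 139 in DMSO larvae. Next came ugt5b4, at 281 ± 37.4 in M510F01 larvae, 314 ± 74.2 in boscalid larvae and 264 ± 50.2 in DMSO larvae, and ugt2a7, at 264 ± 41.7, 251 ± 24.9 and 244 ± 33.3 in the same groups. Among sulfotransferases sult6b1 averaged 1412 ± 234 in M510F01 larvae, 1145 ± 235 in boscalid larvae and 1352 ± 301 in DMSO larvae. The next was sult4a1, whose mammalian counterpart is found mainly in brain, at 842 ± 101 in M510F01 larvae, 823 ± 154 in boscalid larvae and 767 ± 59.8 in DMSO larvae. The phenol-type sult1st1 followed, at 765 ± 150, 804 ± 157 and 782 ± 160 in the same groups. The pi-class gstp1, a gene that Nrf2 induces in zebrafish, averaged 3069 ± 715 in M510F01 larvae, 3456 ± 755 in boscalid larvae and 3244 ± 615 in DMSO larvae. The alpha-class gsta.1 averaged 1655 ± 512 in M510F01 larvae, 1712 ± 408 in boscalid larvae and 1432 ± 528 in DMSO larvae, and gstr, of the rho class known from fish, 1062 ± 132, 1154 ± 183 and 978 ± 180 in the same groups. No pair of groups was separated for any of these 9 genes.

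**Figure D1:**
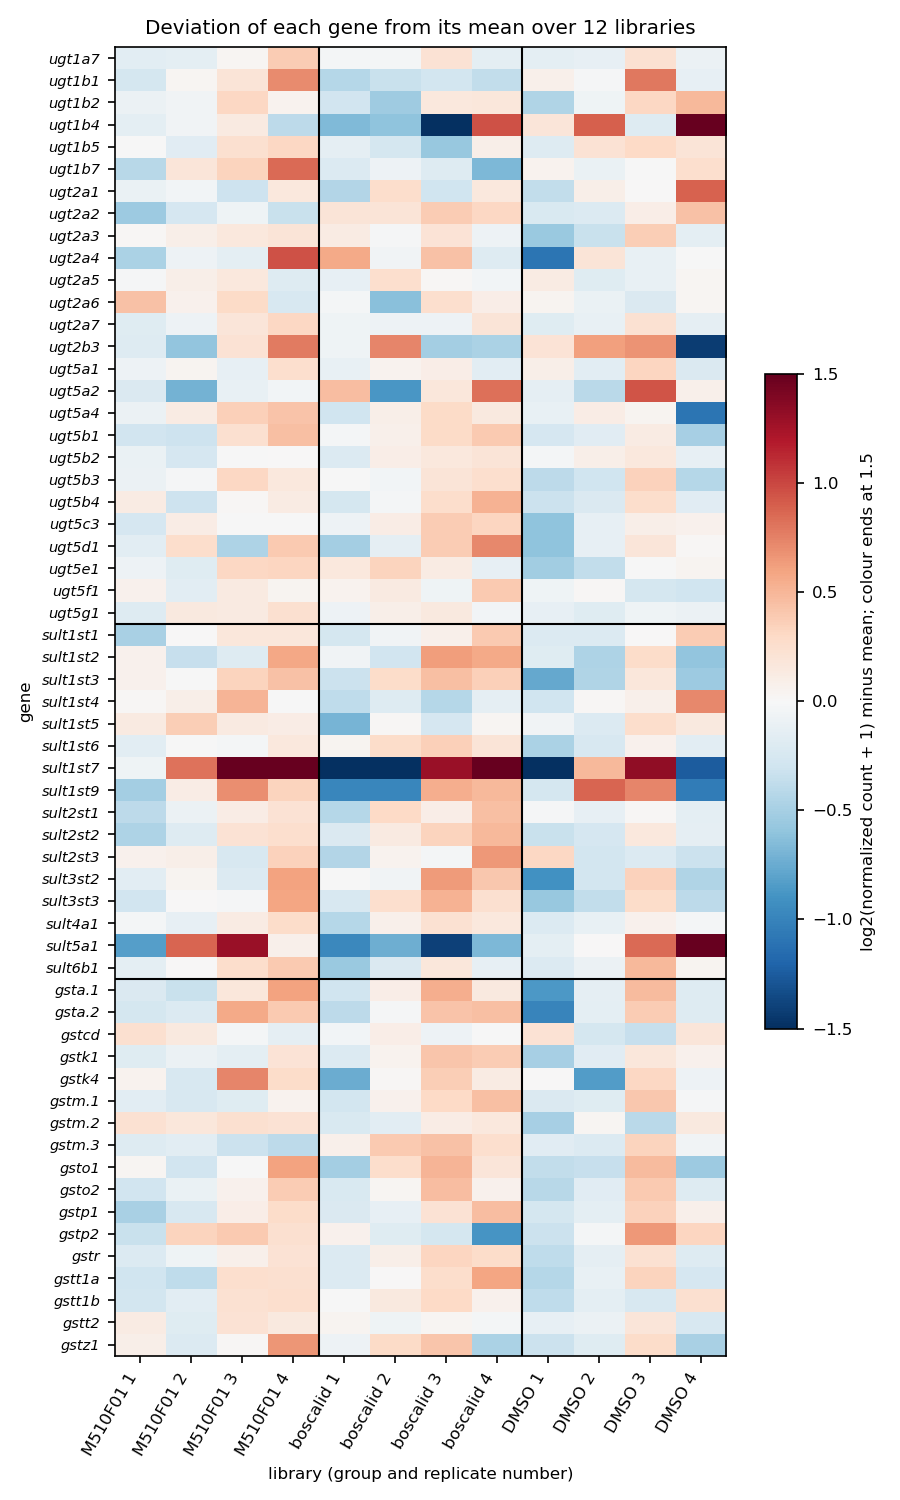
Heat map of the 59 members with a mean of at least 10 over all 12 libraries (rows, glucuronosyltransferases above sulfotransferases above glutathione transferases) in each library (columns, M510F01, boscalid and DMSO, replicates 1 to 4). Colour is log2(normalized count + 1) minus the gene's mean over the 12 libraries, red above and blue below, ending at 1.5. Many genes are redder in libraries numbered 3 and 4 than in those numbered 1 and 2 (31 of 59 with M510F01, 29 with boscalid and 23 with DMSO), and sult5a1 is blue in all 4 boscalid libraries.

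Libraries of a group did not stand level. In M510F01 larvae 31 of 59 members were higher in both libraries numbered 3 and 4 than in both numbered 1 and 2, against 24.2% of all genes tested. In boscalid larvae it was 29 of 59, against 26.8% of all genes, and in DMSO larvae 23 of 59, against 23.3%. The opposite order held for 2 members in M510F01 larvae, 3 in boscalid larvae and 1 in DMSO larvae, against 24.1%, 26.1% and 23.7% of all genes. The heat map of the members by library shows this as a change of colour inside each group. In all 3 groups at once the order held for 6 members (gstp1, sult1st1, sult2st2, sult4a1, sult6b1 and ugt1b2), 10.2% of members against 6.26% of all genes tested. The labels name no batch for these numbers, and what the higher-numbered libraries shared was not tested.

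The pattern also showed in the family medians. In library 1 of each group the median glutathione transferase stood at -0.077 (M510F01), -0.097 (boscalid) and -0.26 (DMSO) on the log2 scale relative to the DMSO mean. In library 4 it stood at 0.35 (M510F01), 0.33 (boscalid) and -0.0098 (DMSO), and in DMSO library 3 at 0.41. The M510F01, boscalid and DMSO libraries thus overlapped in each family.

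**Figure D2:**
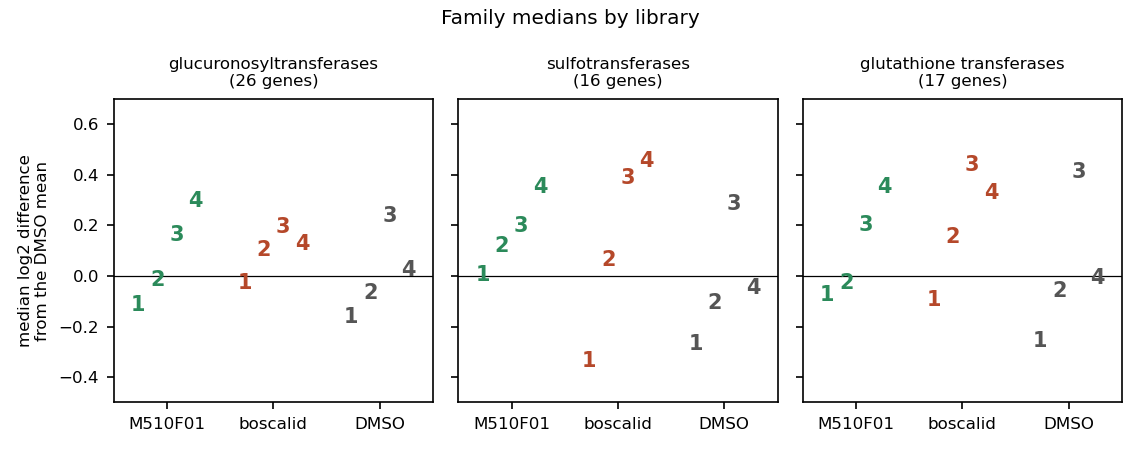
Median log2 difference from the DMSO mean (vertical axis) over the members of each family in each library, shown by its replicate number, for M510F01, boscalid and DMSO. Libraries of the 3 groups overlap in every family, and DMSO library 3 stands highest of the DMSO libraries, at 0.41 for glutathione transferases.

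Replicates of the members also differed more than those of a typical gene. The median SD between replicates on the log2 scale was 0.31 for glutathione transferases, 0.31 for sulfotransferases and 0.26 for glucuronosyltransferases, against 0.23 for all genes tested. It was highest for sult1st7 at 1.96, ugt1b4 at 0.82, sult1st9 at 0.78 and sult5a1 at 0.74, and lowest for ugt5g1 at 0.13.

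With each compound no member passed the threshold of an adjusted p under 0.05 in limma. For boscalid against DMSO 0 of 59 members were called, where 0.0173% of the 23085 genes tested were. For M510F01 against DMSO 0 of 59 were called, where 0% of 23193 genes were. For M510F01 against boscalid 0 of 59 were called, where 0.013% of 23131 genes were. The background of each comparison was thus at or near 0 too.

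At an unadjusted p under 0.05 limma counted 5 of 59 members for boscalid against DMSO (8.47%, against 7.68% of all genes), 2 for M510F01 against DMSO (3.39%, against 3.61%) and 5 for M510F01 against boscalid (8.47%, against 4.6%). The quasi-likelihood test of edgeR called 0 members in every comparison (background 0.0173%, 0% and 0.00865% in the same order), with 5, 2 and 6 at an unadjusted p under 0.05 (background 7.66%, 3.67% and 4.63%). DESeq2 called sult5a1 for boscalid against DMSO and no member in the others (background 0.415%, 0% and 0.0865%), with 5, 2 and 6 at an unadjusted p under 0.05 (background 7.33%, 3.54% and 4.5%). For M510F01 against DMSO the 2 members were not the same in each tool. Limma counted 1 glutathione transferase and 0 glucuronosyltransferases there, while edgeR and DESeq2 each counted 0 and 1. The unadjusted limma counts turned on single libraries. The shares over all genes moved too, but not always in the same direction as the counts. For boscalid against DMSO the count was 18 without DMSO library 3 (14.3% of all genes), 15 without boscalid library 1 (16.5%) and 3 without boscalid library 3 (3.93%). For M510F01 against DMSO it was 11 without DMSO library 3 (8.09% of all genes), 4 without DMSO library 2 (2.38%), and 1 without any one of the M510F01 libraries 2, 3 and 4 (3.33%, 3.06% and 3.58%). For M510F01 against boscalid it was 3 without M510F01 library 3 (3.42% of all genes) and 8 without boscalid library 4 (3.37%). It was 6 of 59 without boscalid library 1, where the share over all genes rose to 15%. Without M510F01 library 4 it was 4 of 60, against 8.17% of all genes.

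The intervals show which changes the libraries leave room for. The 95% interval of the log2 fold change lay inside a 2-fold change in either direction for 51 of 59 members with boscalid against DMSO, 49 with M510F01 against DMSO and 52 with M510F01 against boscalid. Over all genes tested the shares were 89%, 93% and 91.4%. Its median half-width over the members was 0.42, 0.40 and 0.41 in that order. With 4 libraries a group, a fold change smaller than that in a typical member would not reach an unadjusted p under 0.05. At a given spread the adjusted threshold asked for larger changes. Limma did not call sult5a1 at -1.53 with boscalid against DMSO, but its half-width of 0.78 was wider than the median of 0.42.

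**Figure D3:**
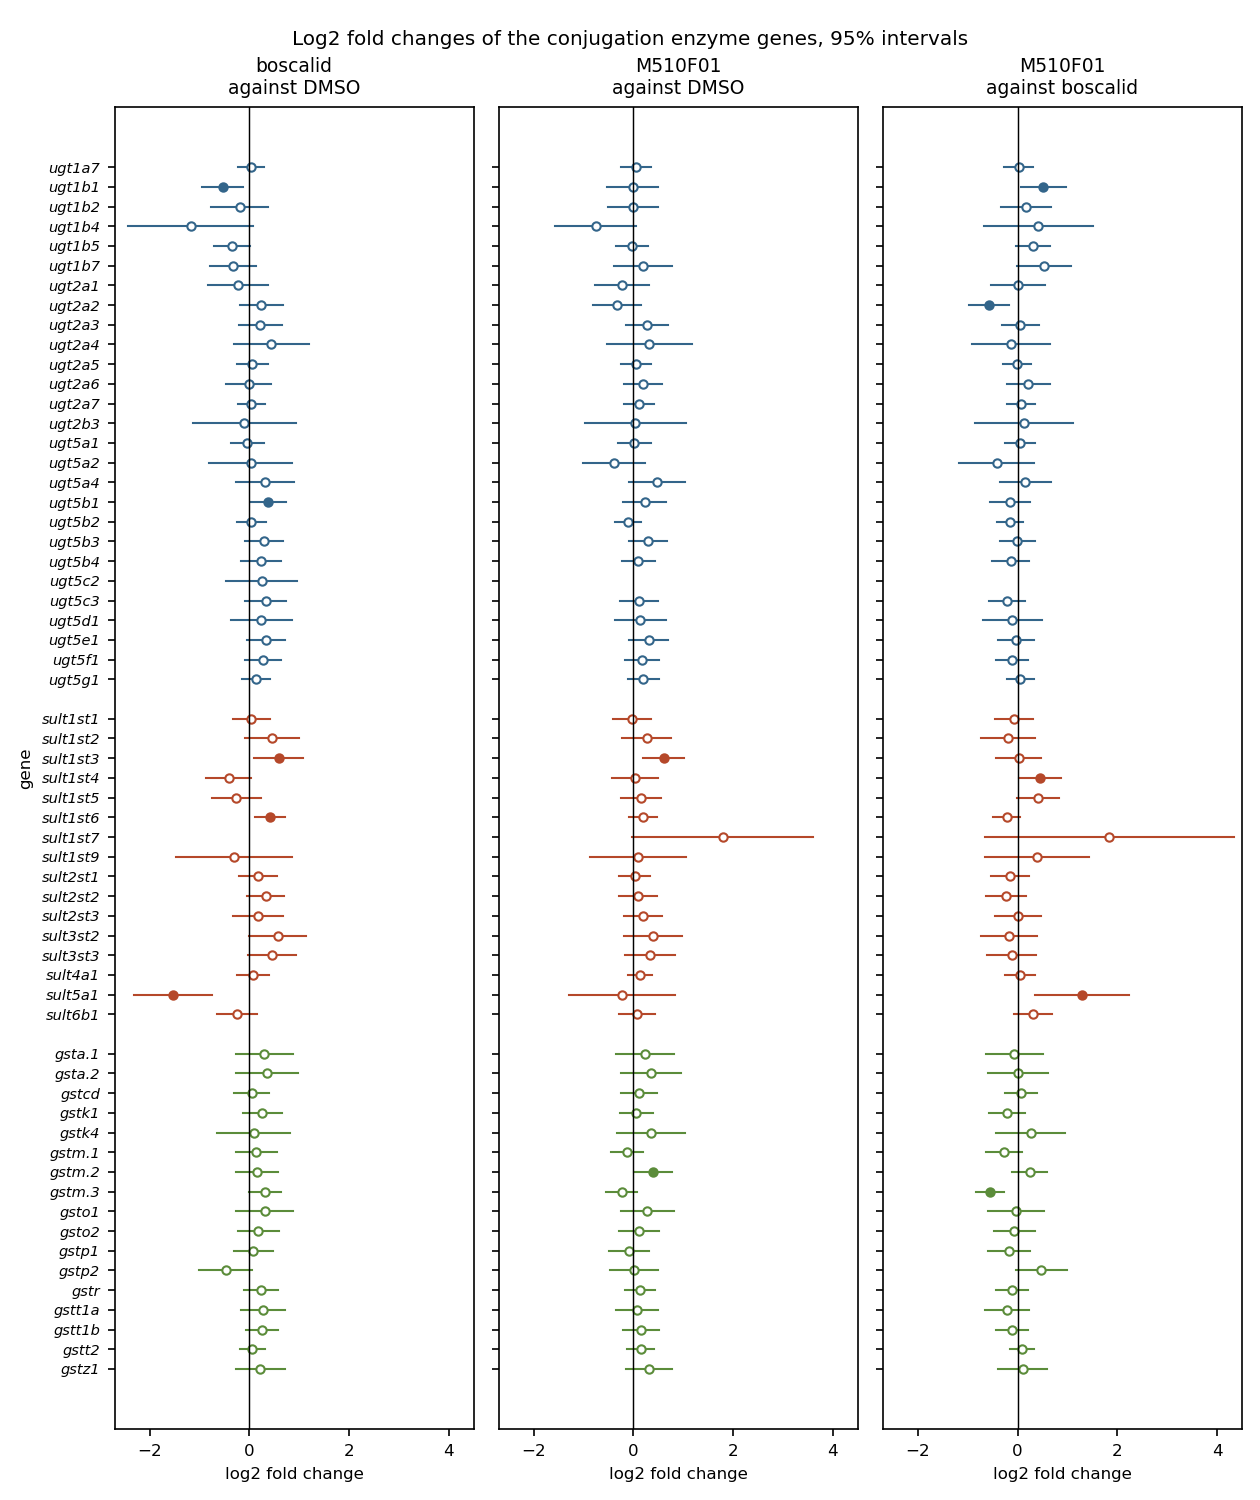
Log2 fold change (horizontal axis, on log2 of the normalized count plus 1) with its 95% interval for each tested member (rows; blue glucuronosyltransferases, red sulfotransferases, green glutathione transferases) in boscalid against DMSO, M510F01 against DMSO and M510F01 against boscalid. Filled points have an unadjusted p under 0.05. Most intervals cross 0, and sult5a1 at -1.53 with boscalid lies farthest to the left in the first panel.

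Positive fold changes outnumbered negative ones with both compounds against DMSO, with medians smaller than the differences between libraries of a group. With boscalid 44 of 59 members had a positive fold change and the median was 0.18, against 50% of all genes and a median of -4.4e-05. With M510F01 46 of 59 were positive with a median of 0.12, against 51.3% of all genes and a median of 0.0044. These 2 comparisons share the 4 DMSO libraries, so they are not independent. The positive members include ugt5c2 with boscalid and sult1st7 with M510F01, whose sign the filter favoured. Between the compounds 30 of 59 members were positive for M510F01 against boscalid, with a median of 0.0048, against 50.7% of all genes and a median of 0.0033. This comparison shares its boscalid and M510F01 libraries with the comparisons against DMSO, so it is not independent of them.

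By groups that did not overlap, the members differed little from the background against DMSO. With boscalid, 2 of 59 members had all 4 libraries below all DMSO libraries (ugt1b1 and sult5a1) and 0 had them above, where 2.05% of all genes were lower and 2.2% higher, 4.25% in all. With M510F01, 1 of 59 members (gstm.2) lay above all DMSO libraries and 0 below, where 1.13% of all genes were higher and 1.08% lower. Between the compounds 4 members were higher in all M510F01 libraries than in all boscalid libraries (ugt1b1, sult1st4, sult1st5 and gstm.2), where 1.06% of all genes were, and 2 were lower (ugt2a2 and gstm.3), where 1.39% of all genes were. Together these were 10.2% of the members, against 2.45% of all genes. In ugt1b1 and gstm.2 the nearest libraries of M510F01 and boscalid were less than 1 normalized count apart.

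No glucuronosyltransferase passed the threshold in any comparison. At an unadjusted p under 0.05 limma counted 2 of 27 for boscalid against DMSO (7.41%, against 7.68% of all genes). Of these, ugt1b1 had a negative value and ugt5b1 a positive one. For M510F01 against DMSO limma counted 0 of 26 (against 3.61%), and for M510F01 against boscalid 2 of 26 (7.69%, against 4.6%). With boscalid against DMSO 18 of 27 had a positive fold change with a median of 0.064. With M510F01 against DMSO 18 of 26 were positive with a median of 0.10, and with M510F01 against boscalid 14 of 26 with a median of 0.014. Leaving out 1 library moved these medians, in the same order of comparisons, between 0.039 (without DMSO library 4) and 0.17 (without boscalid library 2), between 0.016 (without M510F01 library 4) and 0.18 (without DMSO library 3), and between -0.072 (without M510F01 library 4) and 0.069 (without M510F01 library 1). All 5 tested ugt1b genes had negative fold changes with boscalid, with values between -1.18 and -0.19 and a median of -0.35. With M510F01 against DMSO 1 of the 5 was positive with a median of -0.018, and with M510F01 against boscalid all 5 were positive with a median of 0.42. This last count and the negative values with boscalid against DMSO rest on the same boscalid libraries, so they are not independent.

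The ugt1b gene with the smallest p was ugt1b1. It had 131, 161, 180 and 259 normalized counts in the M510F01 libraries, 117, 124, 130 and 122 in the boscalid libraries and 166, 156, 274 and 145 in the DMSO libraries. The boscalid libraries were close together and lay below every M510F01 and every DMSO library, while M510F01 and DMSO overlapped. The gap to M510F01 was under 1 count, from 130.5 in boscalid library 3 to 130.8 in M510F01 library 1. The log2 fold change was -0.53 ± 0.19 (SE; 95% interval -0.95 to -0.12; limma adjusted p = 0.628) for boscalid against DMSO. It was -0.02 (interval -0.53 to 0.50; limma adjusted p = 0.9998) for M510F01 against DMSO. For M510F01 against boscalid it was 0.52 ± 0.21 (SE; interval 0.06 to 0.97; limma adjusted p = 0.842). Without DMSO library 3, its highest, the boscalid value was -0.33, and without M510F01 library 4 that between the compounds was 0.33. Within libraries numbered 1 and 2 boscalid and DMSO differed by -0.41, and within those numbered 3 and 4 by -0.65.

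In the other 4 tested ugt1b genes, too, the boscalid mean was the lowest, and the boscalid libraries overlapped those of both other groups. The counts of ugt1b5 averaged 205 ± 31.2 in M510F01 larvae, 166 ± 30.8 in boscalid larvae and 211 ± 30.1 in DMSO larvae (SD, n = 4 each), and its fold change with boscalid against DMSO was -0.35 (interval -0.71 to 0.0095; limma adjusted p = 0.647). The counts of ugt1b7 averaged 31.1 ± 11.3 in M510F01 larvae, 20.4 ± 3.59 in boscalid larvae and 25.9 ± 2.91 in DMSO larvae, and M510F01 against boscalid gave 0.53 (interval -0.0095 to 1.06; limma adjusted p = 0.842), or 0.32 without M510F01 library 4. The low gene ugt1b4 had 13.3, 14.2, 16.3 and 10.99 normalized counts with M510F01, 9.002, 9.42, 3.46 and 29.5 with boscalid and 16.9, 28.3, 12.9 and 50.2 with DMSO. Its fold change with M510F01 against DMSO was -0.76 (interval -1.57 to 0.05; limma adjusted p = 0.9998), and without DMSO library 4 it was -0.41. In the authors' deposited table it was -0.98, with an unadjusted p of 0.0275 and an adjusted p of 0.999.

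How reads were split among these genes may limit their separate values, and it was not tested. RefSeq's gene table for GRCz12tu, used here to look up names and neighbours, matched 67 of the 68 symbols by gene number (not ugt2a6). It gives 5 of them another symbol: gsta.1 for gsta.2, gstp1.2 for gstp1, gstp1.1 for gstp2, ugt2b6 for ugt2a7 and ugt2b5 for ugt2b3. In it 23 of the 68 genes (21 glucuronosyltransferases, 0 sulfotransferases and 2 glutathione transferases) overlap another gene of the same family. The ugt1b genes other than ugt1b6p, which overlaps ugt1b7 alone, overlap one another, as do ugt2a1 to ugt2a4 and ugt5b1 to ugt5b4. The tables hold 1 ugt1a symbol where that annotation has 7. Overlapping spans do not show how reads were divided, so separate counts for genes of these clusters remain uncertain.

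In the ugt2 family, whose mammalian members act on steroids among others, ugt2a2 differed most between the compounds. It had 20.4, 25.3, 28.8 and 23.8 normalized counts with M510F01, 34.9, 34.9, 39.7 and 37.7 with boscalid and 25.8, 26.2, 32.6 and 41.6 with DMSO. All M510F01 libraries lay below all boscalid libraries, and the DMSO libraries spanned both. M510F01 against boscalid gave -0.57 ± 0.19 (SE; interval -0.97 to -0.17; limma adjusted p = 0.842), and within numbers 1 and 2 and within 3 and 4 the differences were -0.59 and -0.55. Against DMSO the value was -0.33 with M510F01 (interval -0.80 to 0.14), or -0.19 without DMSO library 4.

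Of the fish ugt5 family, all 4 tested ugt5b genes were positive with boscalid against DMSO, between 0.042 and 0.38. The largest, ugt5b1, had 105, 103, 153 and 177 normalized counts with M510F01, 126, 136, 157 and 169 with boscalid and 108, 114, 140 and 90.7 with DMSO. Boscalid and DMSO libraries overlapped, and the fold change was 0.38 (interval 0.029 to 0.73; limma adjusted p = 0.647). With M510F01 against DMSO 3 of the 4 were positive with a median of 0.16, and with M510F01 against boscalid all 4 were negative with a median of -0.14. This last count again shares its boscalid libraries with boscalid against DMSO. Of the other ugt5 genes, ugt5a4 and ugt5e1 had among the smallest p with M510F01 against DMSO. The counts of ugt5a4 averaged 97.5 ± 15.5 in M510F01 larvae and 73.0 ± 23.7 in DMSO larvae, with a fold change of 0.47 (interval -0.08 to 1.02), which was 0.19 without DMSO library 4. Those of ugt5e1 averaged 90.9 ± 16.4 in M510F01 larvae and 73.5 ± 13.8 in DMSO larvae, with a fold change of 0.31 (interval -0.09 to 0.70; limma adjusted p = 0.9998 for both genes).

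**Figure D4:**
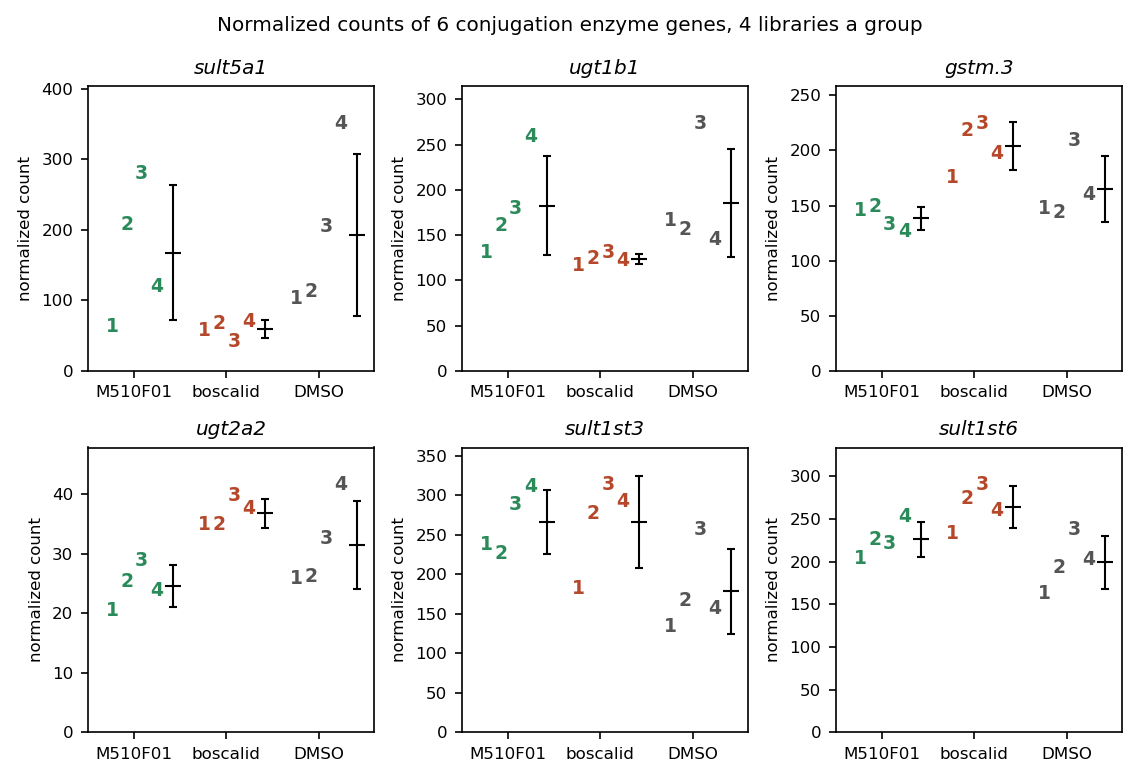
Normalized counts (vertical axes, starting at 0) of sult5a1, ugt1b1, gstm.3, ugt2a2, sult1st3 and sult1st6 in the M510F01, boscalid and DMSO libraries, each shown by its replicate number, with mean ± SD in black. The boscalid libraries of sult5a1 lie between 42.3 and 70.3, below all DMSO libraries, and those of gstm.3 and ugt2a2 lie above all M510F01 libraries.

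The sulfotransferases held the 1 member that any tool called, sult5a1, which was lower with boscalid. At an unadjusted p under 0.05 limma counted 3 of 15 for boscalid against DMSO (20%, against 7.68% of all genes). Of these, sult5a1 had a negative value, and sult1st6 and sult1st3 positive ones. For M510F01 against DMSO it counted 1 of 16 (6.25%, against 3.61%), and for M510F01 against boscalid 2 of 16 (12.5%, against 4.6%). With boscalid against DMSO 10 of 15 had a positive fold change with a median of 0.18. With M510F01 against DMSO 14 of 16 were positive with a median of 0.14, and with M510F01 against boscalid 9 of 16 with a median of 0.011. The boscalid median was 0.034 without boscalid library 4 and 0.35 without boscalid library 1, so it rested on single libraries. The M510F01 median was 0.080 without M510F01 library 4 and 0.22 without DMSO library 3, and that between the compounds was -0.16 without boscalid library 1 and 0.084 without boscalid library 4.

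The gene sult5a1 had 63.4, 208, 280 and 119 normalized counts in the M510F01 libraries, 57.4, 67.8, 42.3 and 70.3 in the boscalid libraries and 102, 113, 205 and 351 in the DMSO libraries. Boscalid libraries were low and close together and lay below every DMSO library, while the M510F01 libraries overlapped both other groups. The log2 fold change was -1.53 ± 0.35 (SE; interval -2.30 to -0.75) for boscalid against DMSO and missed the threshold in limma (adjusted p = 0.371) and in edgeR (adjusted p = 0.355). DESeq2 on the recovered reads called it, with a fold change of -1.70 and an adjusted p of 0.0033. In the authors' deposited table it was also the 1 member called, with a fold change of -1.70 and an adjusted p of 0.0034. There 0.333% of the 26099 genes with an adjusted p were called. That table rests on the same 8 libraries, and the submitters' notes name DESeq2, so it is not a second, independent call.

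That difference was larger in some libraries than in others. Within those numbered 1 and 2 boscalid and DMSO differed by -0.78, and within those numbered 3 and 4 by -2.28. Leaving out 1 library moved the value between -1.77 (without DMSO library 1) and -1.18 (without DMSO library 4). M510F01 against DMSO gave -0.23 (interval -1.29 to 0.83; limma adjusted p = 0.9998), a range that holds a more than 2-fold decrease. M510F01 against boscalid gave 1.30 ± 0.44 (SE; interval 0.35 to 2.24; limma adjusted p = 0.842, DESeq2 adjusted p = 0.248).

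Of the phenol-type sult1 genes, sult1st3 had fold changes of like size with both compounds. It had 238, 227, 288 and 311 normalized counts with M510F01, 182, 277, 314 and 292 with boscalid and 134, 167, 257 and 157 with DMSO. DMSO library 3 reached the range of both exposed groups, so neither was separated from DMSO. The fold change was 0.60 ± 0.19 (SE; interval 0.19 to 1.02; limma adjusted p = 0.9998) with M510F01 against DMSO and 0.59 ± 0.22 (interval 0.098 to 1.08; limma adjusted p = 0.636) with boscalid against DMSO, on the same DMSO libraries. M510F01 against boscalid gave 0.017.

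Next to it sult1st6 had 203, 226, 222 and 254 normalized counts with M510F01, 233, 274, 290 and 260 with boscalid and 163, 193, 238 and 203 with DMSO. The lowest boscalid library lay below DMSO library 3, so these groups overlapped. Boscalid against DMSO gave 0.42 ± 0.13 (SE; interval 0.12 to 0.71; limma adjusted p = 0.573), and M510F01 against DMSO gave 0.19 (interval -0.098 to 0.48), or 0.10 without DMSO library 1.

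A further pair of genes of this class separated the compounds from each other, not from DMSO. The counts of sult1st4 were 81.8, 86.2, 115 and 80.6 with M510F01, 61.9, 70.7, 59.6 and 73.3 with boscalid and 65.5, 81.8, 85.0 and 133 with DMSO. Those of sult1st5 were 30.7, 36.5, 30.8 and 30.2 with M510F01, 16.9, 28.3, 23.3 and 28.5 with boscalid and 26.8, 24.1, 33.6 and 31.0 with DMSO. All M510F01 libraries lay above all boscalid libraries in both genes, and DMSO overlapped both groups. M510F01 against boscalid gave 0.44 (interval 0.017 to 0.86) for sult1st4 and 0.41 (interval -0.015 to 0.84) for sult1st5, both with a limma adjusted p of 0.842, and the value of sult1st5 was 0.26 without boscalid library 1.

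The lowest tested gene of the class, sult1st7, had 6.13, 12.2, 26.9 and 33.0 normalized counts with M510F01, 0, 0, 17.3 and 28.5 with boscalid and 0, 9.43, 17.8 and 2.13 with DMSO. Each group held both low and high libraries. Its fold change with M510F01 against DMSO was 1.79 with an interval of -0.02 to 3.61 (limma adjusted p = 0.9998), and it was 1.02 without DMSO library 1. In the sult3 group both tested genes were positive against DMSO, with medians of 0.36 with M510F01 and 0.51 with boscalid. Of these, sult3st2 averaged 85.2 ± 24.4 normalized counts in M510F01 larvae, 95.9 ± 22.5 in boscalid larvae and 66.3 ± 25.0 in DMSO larvae, and M510F01 against DMSO gave 0.39 (interval -0.19 to 0.97), or 0.20 without DMSO library 1. The 3 hydroxysteroid-type sult2 genes were positive with each compound against DMSO, between 0.027 and 0.19 with M510F01 and between 0.18 and 0.33 with boscalid, and none passed.

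No glutathione transferase passed the threshold, and with boscalid against DMSO nearly all had small positive values. With boscalid against DMSO 16 of 17 had a positive fold change, between 0.051 and 0.36, and the median of the 17 was 0.22. Library by library the range was wide, and the median was 0.11 without boscalid library 3 and 0.34 without DMSO library 3. With M510F01 against DMSO 14 of 17 were positive with a median of 0.13, which was 0.042 without DMSO library 1 and 0.23 without DMSO library 3. With M510F01 against boscalid 7 of 17 were positive with a median of -0.066, which was -0.19 without M510F01 library 4 and 0.060 without boscalid library 3. None of the 17 had an unadjusted p under 0.05 in limma with boscalid against DMSO. With M510F01 against DMSO 1 of 17 had (5.88%, against 3.61% of all genes), and with M510F01 against boscalid 1 of 17 (5.88%, against 4.6%).

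The exception with boscalid was the pi-class gstp2. It had 146, 232, 242 and 219 normalized counts with M510F01, 194, 162, 154 and 99.8 with boscalid and 147, 181, 291 and 230 with DMSO. M510F01 library 1 and DMSO libraries 1 and 2 lay inside the boscalid range, so the groups overlapped. Boscalid against DMSO gave -0.47 (interval -1.003 to 0.064; limma adjusted p = 0.648) and M510F01 against boscalid gave 0.47 (interval -0.04 to 0.98; limma adjusted p = 0.842). Without boscalid library 4 these values were -0.28 and 0.28. Its neighbour in class gstp1 had fold changes of 0.085 with boscalid against DMSO and -0.091 with M510F01 against DMSO.

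The 3 mu-class genes, whose mammalian relatives conjugate epoxides and other electrophiles, had values of differing sign. The gene gstm.3 had 145, 149, 133 and 126 normalized counts with M510F01, 176, 218, 225 and 198 with boscalid and 147, 144, 209 and 160 with DMSO. All M510F01 libraries lay below all boscalid libraries, and DMSO overlapped both groups. M510F01 against boscalid gave -0.55 ± 0.13 (SE; interval -0.84 to -0.27; limma adjusted p = 0.842, DESeq2 adjusted p = 0.137), and leaving out 1 library moved it between -0.62 and -0.51. Boscalid against DMSO gave 0.32 (interval -0.0069 to 0.64; limma adjusted p = 0.647), and M510F01 against DMSO gave -0.24 (interval -0.54 to 0.067), or -0.12 without DMSO library 3.

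The gene gstm.2 had 66.4, 63.9, 67.3 and 65.9 normalized counts with M510F01, 48.4, 50.9, 61.4 and 63.1 with boscalid and 39.7, 57.6, 42.5 and 63.0 with DMSO. The M510F01 libraries were close together and lay above all others, by less than 1 count over the highest DMSO library and over the highest boscalid library. M510F01 against DMSO gave 0.40 ± 0.17 (SE; interval 0.016 to 0.78; limma adjusted p = 0.9998), and M510F01 against boscalid gave 0.24 (interval -0.12 to 0.60). Against DMSO its unadjusted p was under 0.05 in limma but not in edgeR or DESeq2. The third, gstm.1, averaged 202 ± 19.1 in M510F01 larvae, 247 ± 52.7 in boscalid larvae and 224 ± 47.7 in DMSO larvae, and M510F01 against boscalid gave -0.27 (interval -0.63 to 0.093), or -0.41 without boscalid library 1 and -0.16 without boscalid library 4.

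Other classes showed smaller or less certain values. The theta-class gstt1b averaged 283 ± 52.3 normalized counts in M510F01 larvae, 304 ± 29.0 in boscalid larvae and 256 ± 49.8 in DMSO larvae, and boscalid against DMSO gave 0.26 (limma adjusted p = 0.659). The zeta-class gstz1, which isomerizes maleylacetoacetate in tyrosine breakdown, averaged 127 ± 35.0 in M510F01 larvae and 101 ± 24.7 in DMSO larvae, with a fold change of 0.32 (interval -0.14 to 0.78) that was 0.15 without M510F01 library 4. The alpha-class gsta.1 and gsta.2 carry the same gene number in the tables and gave 0.24 and 0.36 with M510F01 against DMSO and 0.30 and 0.36 with boscalid against DMSO, so reads may be split between them.

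The 3 families were also set side by side. Against DMSO their medians were between 0.10 and 0.14 with M510F01 and between 0.064 and 0.22 with boscalid, while single libraries of a group differed by more than that. Medians within pairs of libraries were taken after joint rescaling, over the 26, 16 and 17 members that passed over all 12 libraries. For boscalid this set holds sult1st7 and not ugt5c2, unlike the set tested against DMSO. The boscalid median of the sulfotransferases was 0.18 in the main fit and 0.13 in the joint fit. Within libraries numbered 1 and 2 the boscalid medians were 0.072 for glucuronosyltransferases, -0.0037 for sulfotransferases and 0.20 for glutathione transferases. Within libraries numbered 3 and 4 they were 0.023, 0.37 and 0.19 in that order. The corresponding M510F01 medians were 0.019, 0.14 and 0.17 within numbers 1 and 2 and 0.090, 0.22 and 0.20 within numbers 3 and 4. The boscalid median of the sulfotransferases differed most between the pairs of libraries, and no test of a difference between families was made.

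Marker genes of liver, intestine, pronephros and other tissues were read beside the conjugation enzymes. The summed level of 10 intestine markers was 28880 to 31865 normalized counts in M510F01 larvae, 24025 to 34203 in boscalid larvae and 23580 to 29233 in DMSO larvae. For 10 liver markers it was 133059 to 183538 in M510F01 larvae, 118906 to 164090 in boscalid larvae and 128860 to 139547 in DMSO larvae. For 9 pronephros markers it was 8142 to 8815 in M510F01 larvae, 7737 to 8789 in boscalid larvae and 7839 to 8539 in DMSO larvae. Of the intestine markers 8 of 10 had positive fold changes with M510F01 against DMSO (median 0.23) and 7 of 10 with boscalid against DMSO (median 0.22). Of 9 tested liver markers 5 were positive with each compound (medians 0.040 with M510F01 and 0.020 with boscalid). Of 9 pronephros markers 7 were positive with M510F01 (median 0.090) and 6 with boscalid (median 0.035). Exocrine pancreas markers (7 genes) summed to 34304 to 50986 in M510F01 larvae, 42756 to 69006 in boscalid larvae and 35399 to 56463 in DMSO larvae, and skin markers (4 genes) to 56847 to 101933, 94668 to 144100 and 78604 to 100082 in the same groups. All 7 pancreas markers had positive fold changes against DMSO, with a median of 0.21 with M510F01 and 0.37 with boscalid. Of the 4 skin markers 1 was positive with M510F01 (median -0.074) and all 4 with boscalid (median 0.36). Medians with M510F01 were -0.11 for skeletal muscle markers, 0.10 for brain markers and -0.19 for neutrophil and macrophage markers. With boscalid they were 0.046, 0.18 and -0.16 in that order. In limma 3 of 10 intestine markers had an unadjusted p under 0.05 with each compound against DMSO. With boscalid so had 3 of 7 pancreas markers and 1 each of the pronephros, skin, and neutrophil and macrophage markers. No other marker had, against 7.68% of all genes with boscalid and 3.61% with M510F01. No marker of these lists was at 0 in all libraries and none passed the threshold, and their part in the values of the conjugation enzymes was not tested.

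Genes that make or carry donors of conjugation reactions were counted next, and none of them passed. Not all of them need serve the enzymes counted here. Of 8 genes that make or carry UDP-glucuronic acid 4 were positive with boscalid against DMSO, 1 with M510F01 against DMSO and 2 with M510F01 against boscalid, with medians of -0.0051, -0.13 and -0.14. The smallest p belonged to the nucleotide sugar transporter slc35b1 and to pgm1 with boscalid (0.26 and 0.18), to pgm2 and slc35d1b with M510F01 (-0.20 and -0.18), and to slc35b1 and pgm2 between the compounds (-0.35 and -0.15). Without M510F01 library 1 both values of pgm2 were closer to 0 (-0.094 and -0.041), as was slc35d1b without DMSO library 3 (-0.039). Of the 48 fold changes followed for genes of the other lists, 22 moved by over 1.5 times when 1 library was left out. Of 10 genes for sulfate uptake and PAPS 6, 5 and 1 were positive in the same 3 comparisons, with medians of 0.16, -0.0075 and -0.20. Here the sulfate transporter slc26a2 and slc35b3 led with boscalid (0.32 and 0.26), papss2b and slc13a1 with M510F01 (-0.26 for both), and the PAPS synthase papss1 and slc26a2 between the compounds (-0.26 and -0.20).

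Glutathione supply was no different. Of 15 such genes 9, 9 and 6 were positive, with medians of 0.036, 0.089 and -0.034. Boscalid against DMSO gave -0.52 for ggt1a and 0.48 for ggt1b, which cleave glutathione outside the cell, M510F01 against DMSO gave -0.19 for cbsb and 0.26 for ggt5a, and M510F01 against boscalid gave 0.28 for ggt5a and 0.47 for cthl. Of 6 membrane-bound glutathione transferases and relatives 3, 1 and 0 were positive. The prostaglandin E synthase ptges stood at -0.48 with boscalid and -0.74 with M510F01 against DMSO, mgst3a at 0.27 with boscalid, mgst2 at -0.22 with M510F01 against DMSO and at -0.22 between the compounds, and mgst1.2 at -0.34 between the compounds.

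Lists of other transferases, of transporters and of hydrolases also held no gene past the threshold in limma. Of 13 methyl-, acetyl- and other transferases 8, 5 and 5 were positive. Among them comta, which methylates catechols, was higher in all 4 boscalid libraries than in DMSO libraries, as were 2.2% of all genes. It stood at 382 ± 18.8 against 310 ± 21.3 normalized counts (fold change 0.30, limma adjusted p = 0.558). The values of ugt8 with boscalid against DMSO (-0.15), of nat10 and the histamine methyltransferase hnmt with M510F01 against DMSO (-0.21 and -0.39) and of hnmt and nat10 between the compounds (-0.58 and -0.21) completed that list. Of 23 conjugate transporters 11, 11 and 10 were positive. The transporters abcb5 and abcg2b stood at -0.51 and 0.74 with boscalid, the conjugate export pump abcc2 and abcc6a at 0.20 and -0.47 with M510F01 against DMSO, and abcc2 and slco2b1 at 0.20 and -0.25 between the compounds. Of 7 hydrolases, not all of which act on phase II conjugates, 4, 4 and 4 were positive. The smallest p belonged to sulf2a and sulf1 with boscalid (0.19 and -0.15) and to sulf2a and the steroid sulfatase sts with M510F01 against DMSO (0.30 and -0.28). Between the compounds it belonged to sts and naglu (-0.44 and -0.29).

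Among 25 tested regulators of conjugation genes 9 were positive with boscalid against DMSO, 13 with M510F01 against DMSO and 20 with M510F01 against boscalid. None passed in the main limma fit. DESeq2 called ahrra and ahr2 in both comparisons with boscalid larvae, where it called 0.415% (boscalid against DMSO) and 0.0865% (M510F01 against boscalid) of all genes. In limma ahrra also passed in the joint fit for boscalid against DMSO. With the replicate block ahrra passed in both comparisons and ahr2 for boscalid against DMSO. The smallest p belonged to the aryl hydrocarbon receptor repressor ahrra and the receptor ahr2. The counts of ahrra averaged 43.8 ± 11.1 in M510F01 larvae, 10.1 ± 5.19 in boscalid larvae and 49.3 ± 11.2 in DMSO larvae, giving -2.31 for boscalid against DMSO (limma adjusted p = 0.193) and 2.14 for M510F01 against boscalid (limma adjusted p = 0.147), while ahr2 gave -0.52 and 0.42 (limma adjusted p = 0.365 and 0.842). With M510F01 against DMSO the smallest p belonged to rxrga (0.37) and cebpa (-0.31).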

How the data were processed

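Stranded libraries were prepared from ribosomal-RNA-depleted total RNA, per the labels' protocols. FastQC, cutadapt, STAR, featureCounts and DESeq2 are named, without versions, in the submitters' processing notes; the genome build, the annotation and whether counting used strand were not given in the sources used here. The authors deposited, per compound, a signal table of normalized counts (reads divided by size factors) for 8 libraries; reads came out whole within 0.01 for all values, with depths of 12893093 to 17060350. The authors' deposited tables of log2 fold changes hold their standard errors, with a p-value and adjusted p-value per gene.

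Log2(normalized count + 1) was tested in limma 3.58.1 (trend, robust; R 4.3.3) over all genes with a mean of at least 10, with Benjamini-Hochberg adjustment at 0.05. Each compound was compared with DMSO in its own table. M510F01 was compared with boscalid, and levels are given, after joint median-of-ratios rescaling of all 12 libraries. Alternatives were edgeR 4.0.16 and DESeq2 1.42.0 on the recovered reads, other pseudocounts, filters and rescaling, a replicate block and leaving out libraries. Scripts were tested on simulated data. Figures used Python 3.11.15 and matplotlib 3.10.9. Named genes were the 3 with the smallest p per family and comparison, the 3 with the highest counts per family, those nearest the limit, and 2 per other list. The members and lists were chosen with earlier results of these data known.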

Additional observations from a re-analysis of the deposited data

Results flagged for a closer look

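Among 90 groups of 4 libraries (30 named members in 3 groups) 6 held a library far from the other 3. Chance gives about 1 in 20 independent groups. The 30 members were read in the same 12 libraries, and many were named for a small p. The groups are therefore not independent, and that rate cannot judge these 6. Of these, 3 were DMSO library 3: ugt1a7 stood at 1283 normalized counts (others 987 to 1026), ugt1b1 at 274 (others 145 to 166) and ugt2a7 at 294 (others 221 to 232). In boscalid library 4 ugt2a7 stood at 288 (others 238 to 240). In M510F01 larvae sult1st4 stood at 115 in library 3 (others 80.6 to 86.2) and sult1st5 at 36.5 in library 2 (others 30.2 to 30.8). Whether anything set these libraries apart was not tested.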

How the results depend on the processing

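The counts of members past the threshold stayed the same under 20 other settings per comparison, except that DESeq2 called 1 member, sult5a1 (-1.70), for boscalid against DMSO. The family medians moved by less than the spread between libraries. For M510F01 against boscalid, however, the medians of all 3 families changed sign when 1 library was left out. That of the sulfotransferases also did so with the filter at a mean of 50 (-0.077). Of 40 member fold changes followed, 4 small ones changed sign, and the cause was not tested. For M510F01 against DMSO sult1st4 was -0.0072 in edgeR, -0.0061 in DESeq2 and between -0.11 and 0.22 when 1 library was left out (-0.11, -0.010 and -0.092 without DMSO 1, DMSO 2 or M510F01 3), sult5a1 lay between -0.54 and 0.17 (0.12 without DMSO 4, 0.17 without M510F01 1) and ugt1b1 between -0.20 and 0.19 (0.19, 0.13 and 0.028 without DMSO 3, M510F01 1 or M510F01 2). For M510F01 against boscalid sult1st3 was -0.0063 in edgeR and between -0.15 and 0.11 when 1 library was left out (-0.0254, -0.062 and -0.15 without M510F01 3, M510F01 4 or boscalid 1). Among 48 fold changes of other genes none changed sign; ahrra and ahr2 passed in DESeq2 in both comparisons with boscalid larvae, and ahrra also in the joint fit for boscalid against DMSO.

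Same-numbered libraries of different groups had deviations that correlated between -0.024 and 0.51, highest for number 1 (0.48 to 0.51). In 12 of 24 cases a library matched its own number best of the 4 in another group, where chance gives about 1 in 4. Not every pair was above 0.1, and the labels state no pairing. Whether the numbers mark shared samples is thus not settled, and they were not used to pair libraries. With the replicate number as a block 0 members were called in each comparison, with 20, 5 and 10 at an unadjusted p under 0.05 (20%, 5.58% and 14.1% of all genes) for boscalid against DMSO, M510F01 against DMSO and M510F01 against boscalid. The calls over all genes became 90, 1 and 8, against 4, 0 and 3 without it, and included ahrra and ahr2 for boscalid against DMSO and ahrra for M510F01 against boscalid. A term for numbers 1 and 2 against 3 and 4 gave 0 members, with 14, 4 and 10 at an unadjusted p under 0.05 (14.7%, 5.75% and 11.5% of all genes), and 19, 0 and 5 genes in all. Members with low counts, such as sult1st7, limit what can be detected.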
